A study of Mus musculus with 23 samples.

Results

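The sugar-splitting enzymes and alkaline phosphatases of the intestinal brush border were followed as 7 genes across 3 cell populations of adult mouse intestine. The genes were chosen by symbol in both deposited expression tables, and all 7 were found among the 22517 named genes. They are 4 disaccharidase genes (Sis, Mgam, Lct and Treh) and 3 alkaline phosphatase genes (Alpi, Akp3 and Alpl). RNA was sequenced from 3 libraries each of Eed-null villus, wild-type villus and intestinal stem cells (ISC), all from the proximal small intestine of mice on a mixed B6;129 background. Eed-null villus came from EedF/F mice with Villin-CRE, a recombinase driven in the whole gut epithelium, so Eed loss and Cre differ together from the Cre-negative EedF/F mice that gave wild-type villus. ISC were Lgr5-GFP-high cells of Eed+/+; Lgr5-EGFP-IRES-CREERT2 mice, and mice of all 3 groups had received 1 to 2 mg tamoxifen on each of 5 days. Eed encodes a core subunit of Polycomb repressive complex 2, which places the repressive histone mark H3K27me3.

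The authors' deposited tables hold 1 RPKM value (reads per kilobase of gene, scaled to mapped reads) per gene and group, so no value per library, spread or depth can be given. Calls below follow the deposited statistics and need status OK with q at or below 0.05. Wild-type villus stands in both tables on scales that differ by a constant factor of 1.16193. Tests stay within a table, and Eed-null values set beside ISC values were multiplied by that factor. Eed, the deleted gene, had 3.00 RPKM in Eed-null villus and 9.17 RPKM in wild-type villus (q = 6.29e-06 per the authors' deposited table).

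Disaccharidases are anchored in the microvillus membrane of enterocytes, where they cut the last sugar bonds of the meal, and the monosaccharides then enter through sodium-coupled and facilitative carriers. Intestinal alkaline phosphatases sit on the same membrane by a glycosylphosphatidylinositol (GPI) anchor and remove phosphate from nucleotides, lipids and bacterial lipopolysaccharide. Both kinds of enzyme appear as cells leave the crypt and climb the villus, and they are classical markers of enterocyte differentiation. The factors CDX2, HNF4A and GATA4 are known to act on several of these genes.

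Promoter sequences of 4 genes are shown because they set the neighbouring paralogs Akp3 and Alpi, of which only Akp3 was called lower in Eed-null villus, beside the disaccharidase genes Lct and Sis. Each line gives the 250 bases before the RefSeq start on build GRCm38.p6, 5′ to 3′ on the strand of the gene, at chr1:87124704-87124953 (plus strand) for Akp3, chr1:87101607-87101856 (minus) for Alpi, chr1:128328319-128328568 (minus) for Lct and chr3:72967864-72968113 (minus) for Sis. Capitals mark matches, on either strand, to any of 4 motifs. These include the CDX motif, searched as TTTATNG, and the GATA motif, searched as the letters AGATAA. The others are the HNF4 motif, for which the search used CAAAGTC, and the TATA box, for which it used the letters TATAAA.
Akp3: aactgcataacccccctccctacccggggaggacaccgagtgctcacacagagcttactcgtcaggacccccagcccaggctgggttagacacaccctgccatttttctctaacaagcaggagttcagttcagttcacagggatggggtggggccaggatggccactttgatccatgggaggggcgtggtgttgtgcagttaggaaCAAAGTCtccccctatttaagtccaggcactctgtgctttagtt
Alpi: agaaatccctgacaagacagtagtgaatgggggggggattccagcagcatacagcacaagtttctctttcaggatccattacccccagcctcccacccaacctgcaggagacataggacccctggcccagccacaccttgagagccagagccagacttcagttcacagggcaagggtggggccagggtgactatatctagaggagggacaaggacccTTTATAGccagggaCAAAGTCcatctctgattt
Lct: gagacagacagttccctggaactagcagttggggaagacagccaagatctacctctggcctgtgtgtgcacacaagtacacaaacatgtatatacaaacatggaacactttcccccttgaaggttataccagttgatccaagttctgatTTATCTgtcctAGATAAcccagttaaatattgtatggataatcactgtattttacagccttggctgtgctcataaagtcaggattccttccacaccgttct
Sis: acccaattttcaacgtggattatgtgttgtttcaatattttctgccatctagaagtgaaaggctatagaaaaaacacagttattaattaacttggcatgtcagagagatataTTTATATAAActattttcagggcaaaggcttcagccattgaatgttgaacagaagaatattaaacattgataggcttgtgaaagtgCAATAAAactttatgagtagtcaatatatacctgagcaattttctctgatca

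The Akp3 sequence held CAAAGTC, beginning 44 bases before the start, and none of the other 3 motifs. The Alpi sequence held CAAAGTC 19 bases before the start and TTTATAG 33 bases before it, a stretch that matches both the CDX motif and, on the other strand, the TATA box. In Sis the CDX motif began 52 bases before the start, and the TATA box matched at 138 and 134 bases, overlapping itself. Lct held 2 matches to the GATA motif, at 101 and 90 bases. Of the promoters not printed, Mgam held 2 GATA matches and a TATA box, Treh held 2 matches to CAAAGTC, and of the 2 Alpl promoters listed by RefSeq, 1 held the HNF4 motif and the other a CDX match that overlaps a TATA box. Among 32851 promoter windows of this length, 9.81% held the CDX motif, 9.99% the GATA motif, 3.84% the HNF4 motif and 12.4% the TATA box. A match is only a match of letters. The Akp3 and Alpi windows share the run TTCAGTTCACAGGG, which begins 122 and 94 bases before their starts, and 52.5% of their aligned positions are identical. With Alppl2, a neighbouring alkaline phosphatase gene, the share was 55.5% for Akp3 and 51% for Alpi. The other pairs among these 3 genes and the 4 disaccharidase genes ranged from 41.3% (Alpi and Mgam) to 49.3% (Mgam and Treh), only a little lower.

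Of the 6 genes the authors tested, 3 (Lct, Treh and Akp3) were called lower in Eed-null villus and none was called higher. Over all 12525 genes tested in this comparison, 3.46% were called lower, 7.90% higher and 11.4% in either direction. At an unadjusted p under 0.05, 4 genes had lower values, Alpi being the other, and 0 had higher ones. The median log2 ratio of the 6 genes was -0.80, beside -0.08 for all tested genes. In the other comparison all 6 tested genes were called higher in wild-type villus than in ISC, where 30.5% of 13007 tested genes were called higher, 32.3% lower and 62.8% either way. The median log2 ratio there was 6.29 for the 6 genes and -0.10 for all tested genes. In bulk RNA, fewer cells of a type and less RNA per cell cannot be told apart.

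Of the disaccharidases, Lct and Treh fell in Eed-null villus, Sis and Mgam were not called, and all 4 were far above their ISC level in wild-type villus. Sis encodes sucrase-isomaltase, which splits sucrose and the branch bonds of starch. Its level was 733 RPKM in Eed-null villus and 1127 RPKM in wild-type villus, a log2 ratio of -0.62 at q = 0.443 per the authors' deposited table. The villus-ISC table lists Sis at 1310 RPKM in wild-type villus and 15.9 RPKM in ISC (82.4-fold, q listed as 0 per the authors' deposited table). It was the highest of the 7 genes in villus of both genotypes, at rank 90 of all genes in Eed-null villus and rank 48 in wild-type villus.

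Mgam encodes maltase-glucoamylase, which releases glucose from starch fragments. It had 670 RPKM in Eed-null villus and 629 RPKM in wild-type villus, a log2 ratio of 0.09 at q = 0.956 per the authors' deposited table. Against ISC it stood at 731 RPKM in wild-type villus and 61.7 RPKM in ISC (11.9-fold, q listed as 0 per the authors' deposited table). Mgam thus had the smallest villus excess of the 6 tested genes and the highest level of the 7 in ISC, where it took rank 910.

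Lct encodes lactase, which splits milk sugar. It fell to 168 RPKM in Eed-null villus, against 328 RPKM in wild-type villus (1.95-fold, q = 0.0165 per the authors' deposited table). This call does not hold at q of 0.01, with Bonferroni adjustment or with a 2-fold minimum. In the villus-ISC table Lct had 381 RPKM in wild-type villus and 5.10 RPKM in ISC (74.7-fold, q listed as 0 per the authors' deposited table).

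Treh encodes trehalase, a GPI-anchored enzyme that splits the fungal and insect sugar trehalose. It fell to 135 RPKM in Eed-null villus, against 297 RPKM in wild-type villus (2.20-fold, q = 9.72e-05 per the authors' deposited table). Wild-type villus had 345 RPKM and ISC 3.90 RPKM (88.4-fold, q listed as 0 per the authors' deposited table). Lct and Treh kept similar proportions to each other in every group, with 1.24 times as much Lct as Treh in Eed-null villus, 1.11 times in wild-type villus and 1.31 times in ISC.

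**Figure D1:**
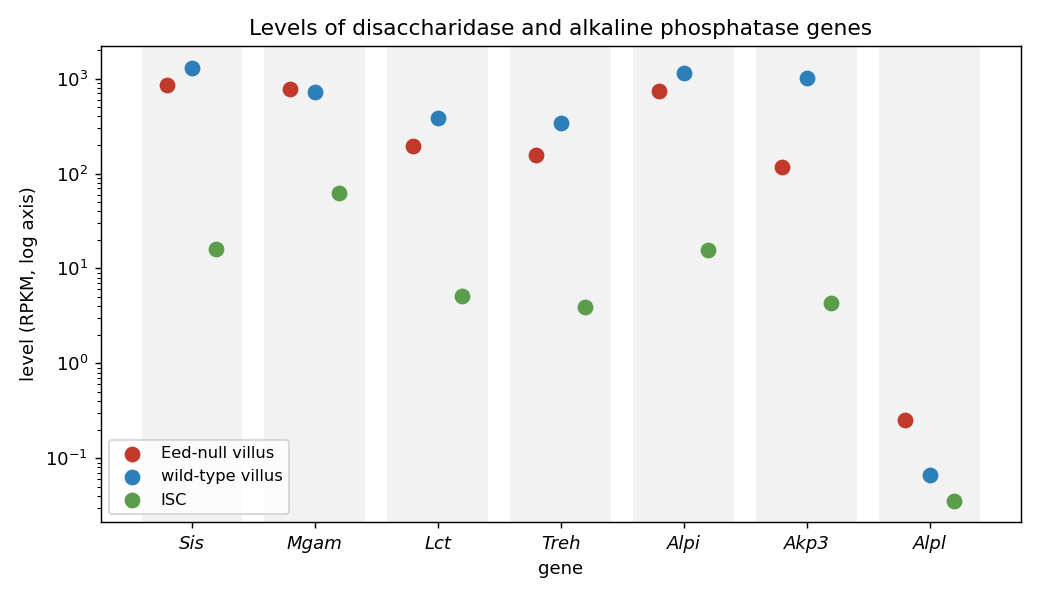
Level of each gene in RPKM on a log axis in Eed-null villus, wild-type villus and ISC, 1 value per group, with Eed-null values multiplied by 1.16193 to the scale of the villus-ISC table. The points of 6 genes lie between 118 and 1310 RPKM in both villus groups and between 3.90 and 61.7 RPKM in ISC, while Alpl lies below 1 RPKM throughout.

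Of the alkaline phosphatases, Akp3 fell in Eed-null villus, Alpi was not called and Alpl was not tested by the authors. Akp3 encodes an intestinal alkaline phosphatase that the RefSeq table also names dIAP. It fell to 102 RPKM in Eed-null villus, against 865 RPKM in wild-type villus (8.50-fold, q listed as 0 per the authors' deposited table). Its rank among all genes was 806 in Eed-null villus and 77 in wild-type villus. Akp3 also had the largest villus excess of the 7 genes, with 1006 RPKM in wild-type villus and 4.37 RPKM in ISC (230-fold, q listed as 0 per the authors' deposited table).

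Alpi, the other abundant intestinal alkaline phosphatase gene, had 633 RPKM in Eed-null villus and 986 RPKM in wild-type villus. Its log2 ratio of -0.64 came with p = 0.0454 and q = 0.224 per the authors' deposited table. Against stem cells it stood at 1146 RPKM in wild-type villus and 15.8 RPKM in ISC (72.7-fold, q listed as 0 per the authors' deposited table). Alpi and Akp3 are paralogs, and reads from stretches they share could be divided between them in the authors' counting. The tables do not test the difference between the Alpi and Akp3 ratios.

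Alpl encodes the tissue-nonspecific alkaline phosphatase, best known for its part in bone mineralisation. It had 0.220 RPKM in Eed-null villus and 0.0574 RPKM in wild-type villus in the second comparison, and 0.0667 RPKM in wild-type villus and 0.0357 RPKM in ISC in the other. Both tables give it the status NOTEST, so its log2 ratios of 1.94 and 0.90 carry no call. With 1 RPKM added to each value they become 0.21 and 0.04. Mesenchyme and endothelium are known to use Alpl, and summed levels of 15 of their marker genes were 3.19 RPKM in Eed-null villus, with 1 gene (Lum) at 0, and 2.01 RPKM in wild-type villus, with 3 (Lum, Cdh5 and Kdr) at 0, and their part in the Alpl values was not tested.

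**Figure D2:**
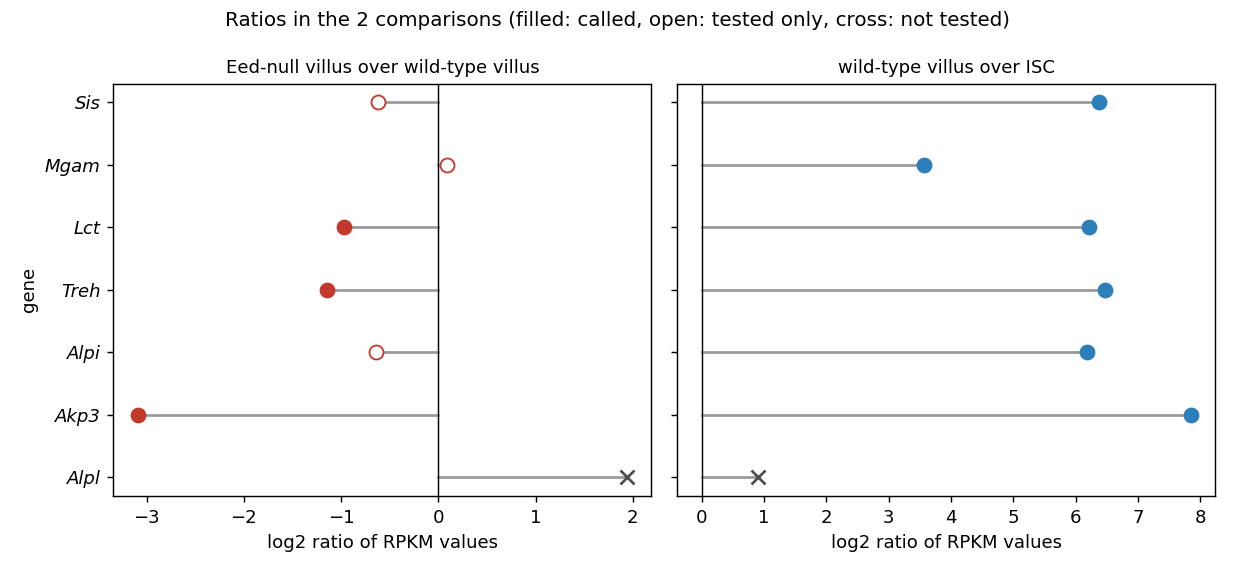
Log2 ratio of RPKM values of each gene for Eed-null villus over wild-type villus (left) and wild-type villus over ISC (right), with filled points for called genes, open points for genes tested but not called and crosses for genes not tested. Akp3 is lowest on the left at -3.09 and highest on the right at 7.85, while Mgam lies at 0.09 and 3.57.

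The order of levels differed between the groups, although neighbouring values cannot be separated without a spread. In Eed-null villus the genes stood as Sis, Mgam, Alpi, Lct, Treh, Akp3 and Alpl from high to low. In wild-type villus the order was Sis, Alpi, Akp3, Mgam, Lct, Treh and Alpl, and in ISC it was Mgam, Sis, Alpi, Lct, Akp3, Treh and Alpl. On the scale of the villus-ISC table, even Akp3 in Eed-null villus, at 118 RPKM, stood above its ISC level of 4.37 RPKM, a 27.1-fold difference across tables that carries no test. The corresponding values across tables were 53.6-fold for Sis, 46.6-fold for Alpi, 40.2-fold for Treh, 38.2-fold for Lct and 12.6-fold for Mgam.

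Within each enzyme class the composition of the RNA differed by group. Akp3 made up 13.9% of the summed alkaline phosphatase RPKM in Eed-null villus, 46.7% in wild-type villus and 21.7% in ISC, and Alpi nearly all of the rest. There was 6.21 times as much Alpi as Akp3 in Eed-null villus, 1.14 times in wild-type villus and 3.61 times in ISC. Mgam made up 39.3% of the summed disaccharidase RPKM in Eed-null villus, 26.4% in wild-type villus and 71.2% in ISC. Sis made up 43.0%, 47.3% and 18.4% in the same 3 groups. Lct accounted for 9.84% in Eed-null villus, 13.8% in wild-type villus and 5.89% in ISC. The sum of the 4 disaccharidases was 1705 RPKM in Eed-null villus and 2381 RPKM in wild-type villus, and that of the alkaline phosphatases 735 and 1852 RPKM in the same order. These shares are descriptions of 1 value per group, with no test.

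**Figure D3:**
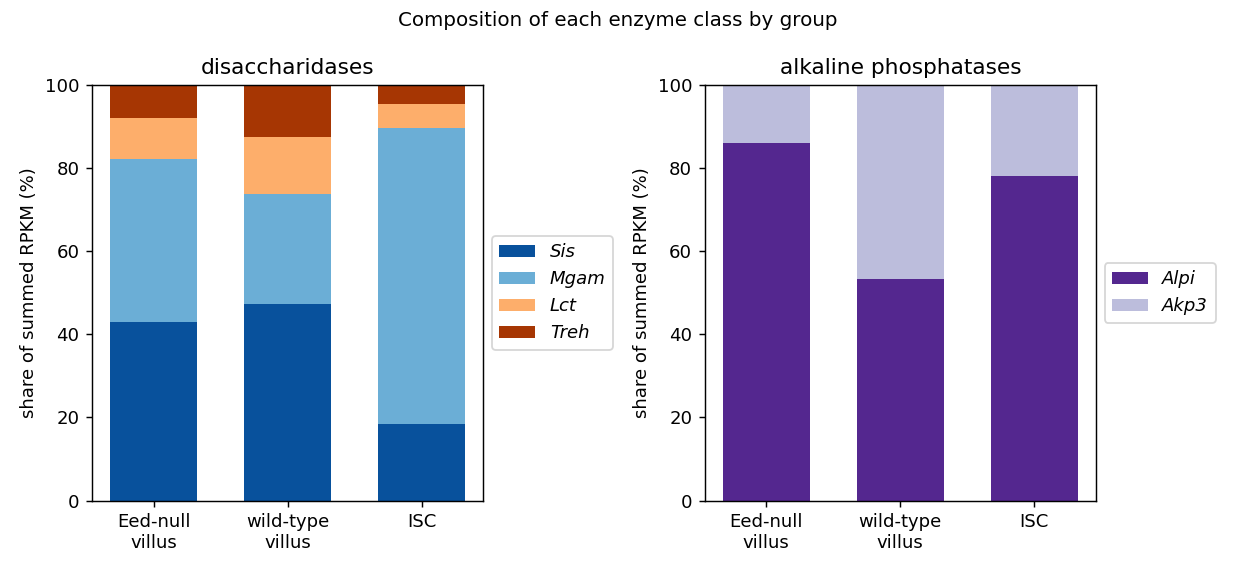
Share of each gene in the summed RPKM of the disaccharidases (left) and of the alkaline phosphatases (right), in percent, for Eed-null villus, wild-type villus and ISC; Alpl is below 1% in each group and is not drawn. Akp3 takes 13.9% in Eed-null villus and 46.7% in wild-type villus, and Mgam takes 71.2% of the disaccharidase sum in ISC.

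The 3 intestinal-type phosphatase genes lie side by side on chromosome 1 of build mm9, and their values in Eed-null villus were unequal. Alppl2, which encodes an embryonic-type alkaline phosphatase, lies 8.07 kb from Alpi, and Alpi lies 23.4 kb from Akp3. In the tables Akp3 runs from 89021582 to 89024487, Alpi from 88994576 to 88998181 and Alppl2 from 88983265 to 88986503. Alppl2 was far lower in level, with 0.526 RPKM in Eed-null villus and 1.76 RPKM in wild-type villus, and it was called lower (3.35-fold, q = 0.00122) per the authors' deposited table. It had 2.05 RPKM in wild-type villus and 0.587 RPKM in ISC (3.49-fold, q = 0.00137 per the authors' deposited table). So the outer genes of the cluster were called lower in Eed-null villus, while Alpi between them was lower in value without a call. The Alpi log2 ratio was -0.64 at q = 0.224 per the authors' deposited table. Differences between the ratios of these genes were not tested. Nor was the part that reads shared with the abundant paralogs could have in the low Alppl2 values. Ecel1, on the other side of Akp3 at 19.7 kb, had 0.567 RPKM in Eed-null villus and 0.208 RPKM in wild-type villus. It was not called (q = 0.0582 per the authors' deposited table). Eif4e2, which encodes a cap-binding protein and lies 86 kb from Akp3, had 29.1 RPKM in Eed-null villus and 24.7 RPKM in wild-type villus (q = 0.752 per the authors' deposited table).

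**Figure D4:**
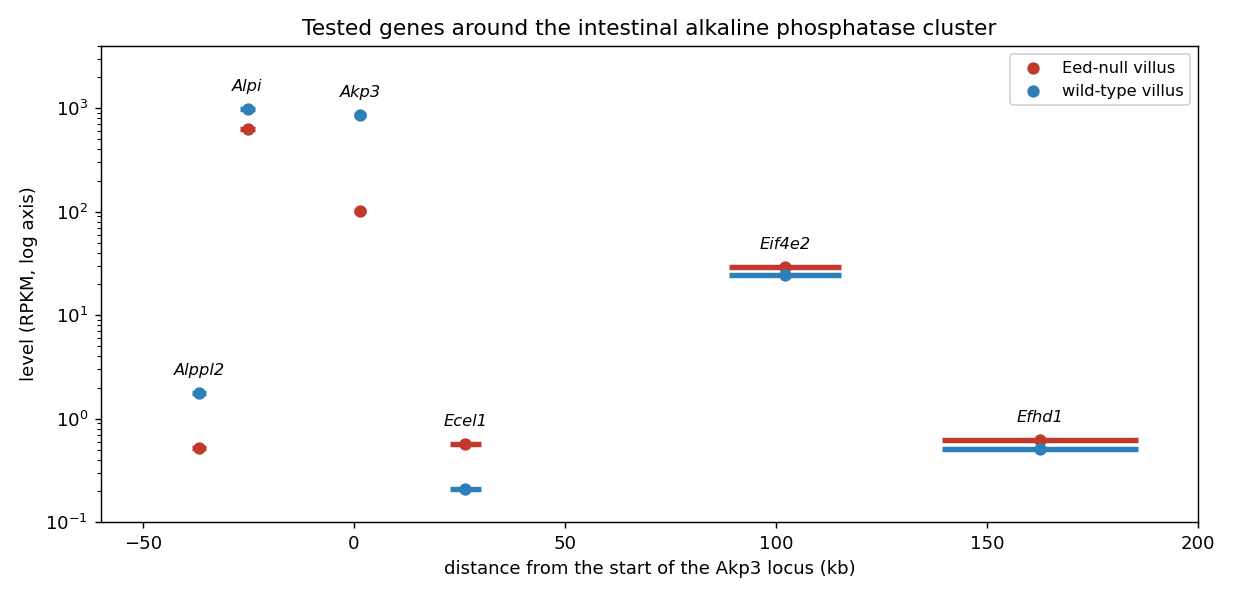
Level in RPKM (log axis) of tested genes in Eed-null villus and wild-type villus against distance in kb from the start of the Akp3 locus, with bars spanning each locus entry. Akp3 stands at 102 RPKM in Eed-null villus and 865 RPKM in wild-type villus, and Alpi at 633 and 986 RPKM in the same order.

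Most genes around these loci had no call between Eed-null and wild-type villus, as was so among all tested genes, of which 11.4% were called. Sis lies between 72692481 and 72770788 on chromosome 3, Mgam between 40578829 and 40719122 on chromosome 6, Lct between 130181340 and 130224895 on chromosome 1, Treh between 44481320 and 44494387 on chromosome 9 and Alpl between 137297646 and 137352292 on chromosome 4. Within 200 kb of the 7 genes the tables list 48 other genes, of which 27 were tested between Eed-null and wild-type villus, 2 were called lower (Alppl2 and Ttc36) and none higher; at an unadjusted p under 0.05 the counts were 3 lower and 2 higher. Over all tested genes 3.46% were called lower and 7.90% higher in that comparison. Between wild-type villus and ISC, 27 were tested, 6 were called higher and 12 lower in wild-type villus. The shares over all tested genes there were 30.5% higher and 32.3% lower. Ttc36, which lies 113 kb from Treh, had 1.34 RPKM in Eed-null villus and 5.07 RPKM in wild-type villus (q = 0.000566 per the authors' deposited table). Mcm6, a replication helicase gene 3.27 kb from Lct, had 8.65 RPKM in Eed-null villus and 10.8 RPKM in wild-type villus (q = 0.539 per the authors' deposited table). Between wild-type villus and ISC the same gene ran opposite to Lct, at 12.5 RPKM in wild-type villus and 77.5 RPKM in ISC, with q listed as 0 per the authors' deposited table. Phldb1 begins directly after Treh in the tables and was not called in Eed-null villus, at 2.81 RPKM in Eed-null villus and 3.17 RPKM in wild-type villus. The library kit does not mark strand, so reads at touching gene ends cannot be told apart.

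Genes with the most similar pair of ratios were sought among 9961 genes tested in both comparisons, as the smallest distance between points given by the 2 log2 ratios over the 3 groups. The comparisons share wild-type villus, so these distances are descriptions. Nearest to Sis was Slc28a1, a concentrative nucleoside transporter gene, at a distance of 0.0575, followed by the cation transporter gene Slc47a1 at 0.176. Nearest to Alpi was Asah2, which encodes a brush-border ceramidase, at 0.0377, then Slc5a4b at 0.164. Lct lay nearest to Cyp2c29 at 0.0409 and to Ace, a brush-border peptidase gene, at 0.162, and Treh to the selenoprotein gene Sepp1 at 0.0581 and to Trim38 at 0.226. Mgam lay nearest to Cd101 at 0.0436 and C2cd2l at 0.045. Cd101 stood at only 0.561 RPKM in wild-type villus and 0.0472 RPKM in ISC, and its log2 ratio of 3.57 there becomes 0.58 with 1 RPKM added to each value. Akp3 had no near neighbour, the closest being the calcium channel gene Trpv6 at 0.834 and Slc37a2 at 1.31. Among the genes themselves Sis and Alpi were closest, at 0.183, and Mgam and Akp3 farthest apart, at 5.33. Trpv6 had 1.21 RPKM in Eed-null villus and 5.91 RPKM in wild-type villus (q = 5.81e-09 per the authors' deposited table). In ISC, Trpv6 had only 0.0355 RPKM and Slc37a2 0.129 RPKM. Cyp2c29, Slc47a1 and Trim38 were also below 1 RPKM in ISC, at 0.293, 0.393 and 0.454 RPKM. The villus-ISC ratios of these 5 nearest genes, and so their distances, rest on low ISC values.

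Of 7 listed carriers for the sugars these enzymes release, 1 was called higher in Eed-null villus and none lower, also at an unadjusted p under 0.05, with a median log2 ratio of -0.02. Slc5a4b, a gene of the sodium-glucose cotransporter family that the list does not hold, was called lower, at 50.5 RPKM in Eed-null villus and 87.0 RPKM in wild-type villus (q = 0.00793 per the authors' deposited table). Slc5a1, the sodium-glucose cotransporter gene, had 1561 RPKM in Eed-null villus and 1117 RPKM in wild-type villus (q = 0.554 per the authors' deposited table). Slc2a1, a glucose transporter gene, was the called member, with 9.92 RPKM in Eed-null villus and 5.62 RPKM in wild-type villus and q = 0.0238 per the authors' deposited table. Against ISC, 6 of 7 were called higher in wild-type villus, among them Slc2a7 (149-fold) and Slc2a2, the basolateral glucose exit carrier gene (114-fold), per the authors' deposited table.

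Genes that handle fructose, galactose and glucose inside the cell split in Eed-null villus into 3 called higher, 2 called lower and 14 not called. At an unadjusted p under 0.05 the counts were 3 higher and 5 lower, and 13 of the 19 had lower values, with a median log2 ratio of -0.23. G6pc, the glucose-6-phosphatase gene, had 6.58 RPKM in Eed-null villus and 18.6 RPKM in wild-type villus, and the gluconeogenic gene Pck1 120 and 258 RPKM in the same order, both called lower per the authors' deposited table. The hexokinase genes Hk1 and Hk2 and the glycogen synthase gene Gys1 were called higher, with Hk2 at 8.01 RPKM in Eed-null villus and 2.87 RPKM in wild-type villus per the authors' deposited table. Hk1 shares its locus entry with another gene. Between wild-type villus and ISC, 13 of 20 were called higher and 1, Hk2, lower. A list of other carbohydrate-cleaving enzymes had 0 calls of 3 in Eed-null villus, also at an unadjusted p under 0.05. The 3 were the glucosidase genes Gaa, Ganc and Ganab, while the amylase genes Amy1, Amy2a5 and Amy2b were not tested there. In wild-type villus against ISC, with Amy1 tested as well, the list had 1 higher (Ganc, with a shared locus entry) and 1 lower (Gaa) of 4. Lysosomal glycosidases had 1 higher (Gusb) and 1 lower (Hexa) of 16 in Eed-null villus. In wild-type villus against ISC they had 7 higher and 4 lower of 16, and Gaa is counted in this list too.

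Genes of the GPI anchor, which Treh, Alpi and Akp3 proteins need, gave 2 higher and 0 lower calls among 28 tested in Eed-null villus. The list covers building, attachment and remodelling of the anchor, and also Gpld1, which encodes a phospholipase that cleaves it. At an unadjusted p under 0.05 there were 3 higher and 0 lower. Values were nonetheless lower in Eed-null villus for 22 of the 28 and higher for 6, with a median log2 ratio of -0.30. The 2 were Piga, at 12.3 RPKM in Eed-null villus and 6.49 RPKM in wild-type villus, and Pigz, at 0.963 and 0.0576 RPKM in the same order, per the authors' deposited table. In wild-type villus against ISC the same list had 6 higher and 4 lower of 27, with Gpld1 among the lower ones. Of 16 tested genes of phosphate, pyrophosphate and mineral handling, 2 had a higher and 2 a lower call in Eed-null villus. Nt5e, the ectonucleotidase gene that also removes phosphate from nucleotides, had 167 RPKM in Eed-null villus and 60.5 RPKM in wild-type villus (q = 1.64e-07 per the authors' deposited table). The list had 12 higher and 2 lower of 16 in wild-type villus against ISC. Of 3 other phosphatase genes (Alppl2, Phospho1 and Phospho2), all were called higher in wild-type villus than in ISC and Alppl2 alone lower in Eed-null villus.

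Among 22 transcription factors of enterocytes, Cdx2 and Isx were called lower in Eed-null villus and none higher. Cdx2, the intestinal homeobox factor, had 31.1 RPKM in Eed-null villus and 61.0 RPKM in wild-type villus (1.96-fold, q = 0.000487 per the authors' deposited table). Isx, a homeobox factor of vitamin A handling, had 23.4 RPKM in Eed-null villus and 53.9 RPKM in wild-type villus (q = 8.63e-06 per the authors' deposited table). The other factors named above were not called there, with Hnf4a at 238 and 176 RPKM and Gata4 at 37.5 and 35.8 RPKM in Eed-null and wild-type villus. At an unadjusted p under 0.05, 5 of the 22 had higher and 4 had lower values in Eed-null villus, and the median log2 ratio was -0.10. Between wild-type villus and ISC, 9 factors were called higher and 5 lower, and Cdx2 had 70.9 RPKM in wild-type villus and 65.0 RPKM in ISC at q = 0.649 per the authors' deposited table.

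Other enterocyte markers were mostly not called in Eed-null villus, whereas all 24 tested were called higher in wild-type villus than in ISC. Of 24 tested, 2 were called lower in Eed-null villus and none higher, with a median log2 ratio of -0.16 and 0 higher and 3 lower at an unadjusted p under 0.05. The 2 were Apoc3, an apolipoprotein gene, at 819 RPKM in Eed-null villus and 2243 RPKM in wild-type villus, and Ace at 253 and 550 RPKM in the same order, per the authors' deposited table. Vil1, whose promoter drives the Cre, had 854 RPKM in Eed-null villus and 1025 RPKM in wild-type villus (q = 0.780 per the authors' deposited table), and shares its locus entry with another gene. Apoa4 is listed at 0 in wild-type villus with the status HIDATA, beside 7256 RPKM in Eed-null villus. Its 0 was not read as a level, and the gene was left out.

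Markers of gut region and villus height were also among the genes called in Eed-null villus. Although the labels give the proximal intestine, the ileal gene Fabp6 had 251 RPKM in Eed-null villus and 1444 RPKM in wild-type villus per the authors' deposited table. Of 9 tested ileum markers, 5 were called lower in Eed-null villus and none higher, with a median log2 ratio of -0.70. Of 10 proximal markers, 3 were called higher (Cybrd1, Pdx1 and Slc11a2) and 1, Trpv6, lower, with a median log2 ratio of 0.29. Villus tip markers gave 3 higher and 0 lower calls among 9 tested, with Ada at 1546 RPKM in Eed-null villus and 711 RPKM in wild-type villus per the authors' deposited table. The median log2 ratio of the tip markers was 0.50. Villus base markers gave 2 lower and 0 higher calls among 9 tested, these being the lectin genes Reg1 and Reg3a. The base list had 4 higher and 5 lower values and a median log2 ratio of -0.08, equal to that of all tested genes. Its summed level was 7867 RPKM in Eed-null villus and 10027.5 RPKM in wild-type villus, and a shift of the list was not tested. The part of region and villus height in the values of Akp3, Lct and Treh was not tested. Against ISC, 9 of 9 ileum, 8 of 10 proximal, 7 of 9 tip and 7 of 9 base markers were called higher in wild-type villus, and 0, 0, 1 and 2 lower.

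**Figure D5:**
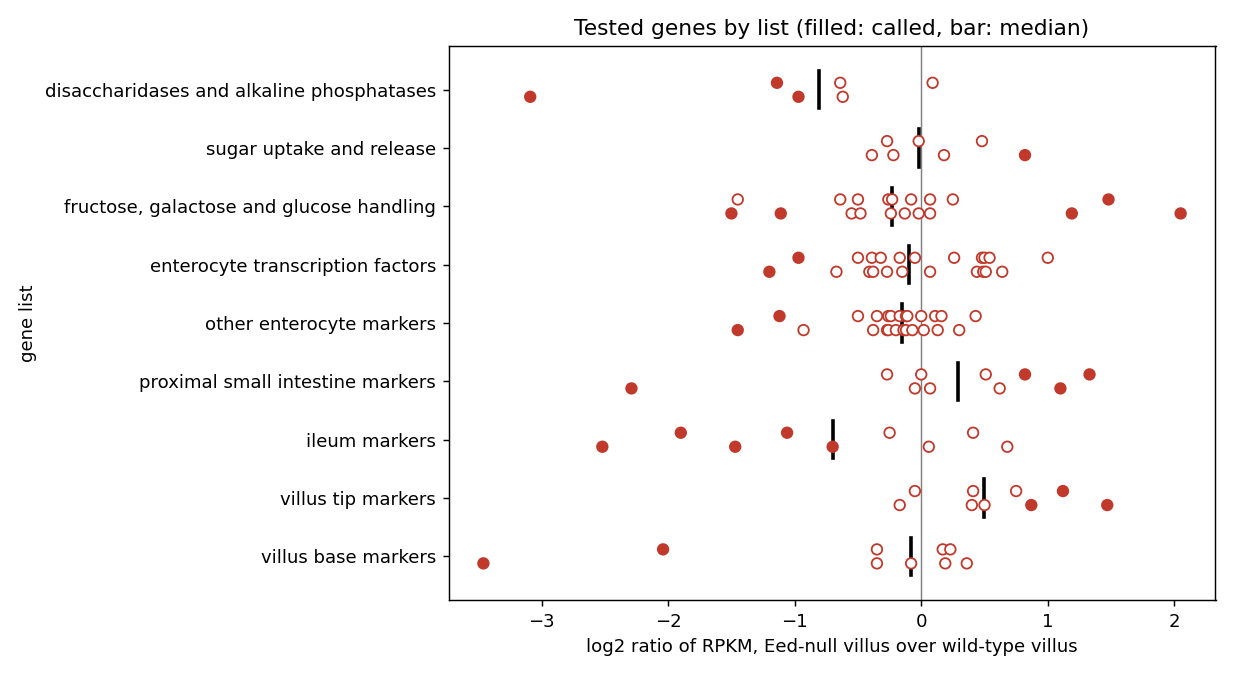
Log2 ratio of RPKM, Eed-null villus over wild-type villus, of each tested gene with no value of 0 in 9 gene lists, with filled points for called genes and a bar at the list median. The bar of the disaccharidases and alkaline phosphatases lies at -0.80, that of sugar carriers at -0.02 and that of other enterocyte markers at -0.16.

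Lgr5, the receptor that marks the sorted cells, had 0.607 RPKM in wild-type villus and 18.3 RPKM in ISC per the authors' deposited table. All 17 tested stem cell markers were called lower in wild-type villus than in ISC, and in Eed-null villus 2 of 16 were called higher and 1, Olfm4, lower than in wild-type villus. Goblet markers were called higher in 4 of 10 cases in Eed-null villus, Paneth markers in 1 of 9, enteroendocrine markers in 2 of 12 with 1 lower, and tuft markers in 0 of 8 with none lower (1 higher and 0 lower at an unadjusted p under 0.05). In wild-type villus against ISC the counts higher and lower were 3 and 4 of 10 for goblet, 0 and 6 of 6 for Paneth, 5 and 5 of 12 for enteroendocrine and 7 and 0 of 8 for tuft markers. The other 3 Paneth markers (Lyz1, Defa17 and Defa24) are listed at 0 in ISC with the status HIDATA and were left out of that count. Their 0 was not read as a level, and they had 1021, 97.2 and 4334 RPKM in wild-type villus. Leukocyte markers summed to 72.7 RPKM in Eed-null villus and 104 RPKM in wild-type villus, of which Gzma alone had 37.6 and 59.9 RPKM. Of 12 tested, 6 had higher and 6 lower values in Eed-null villus, and 1, Gzmb, was called lower. In wild-type villus against ISC the leukocyte markers gave 8 higher calls and 1 lower among 13 tested. Of 15 mesenchyme and endothelium markers 2 were tested, with none called in Eed-null villus and 1, Vim, lower in wild-type villus than in ISC. The part of these cells in the disaccharidase and phosphatase values was not tested. Handling also differed, since only ISC were dissociated with TrypLE and sorted. Genotype differed too, with Eed+/+; Lgr5-EGFP-IRES-CREERT2 mice for ISC and Cre-negative EedF/F mice for wild-type villus. Neither can be told apart from cell type in the comparison of wild-type villus with ISC.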

How the data were processed

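RNA of 9 libraries in 3 groups was read as 75 bp single-end reads from unstranded TruSeq V2 libraries, per the labels' protocols; 14 chromatin and input libraries were not analysed here. The submitters' processing notes list build mm9 and, with no roles, Bowtie, Cuffdiff, Cufflinks 2.0.1 and TopHat2 2.0.6. The authors' deposited tables hold 1 RPKM value per group, so library depth is unknown. The Eed-null table names no unit: its wild-type villus values are 1.16193 times lower than in the other table (1.16192 to 1.16194, 10353 genes), and RPKM was inferred from this. The authors also deposited a p-value and q-value per gene, and q matches a Benjamini-Hochberg adjustment over genes with status OK within 8.02e-05. The entry naming no gene was left out.

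Ratios of RPKM were computed without a pseudocount in Python 3.11.15 with pandas 2.3.3. The code for the Benjamini-Hochberg adjustment and the q threshold was tested on simulated p-values, while the calls themselves used the deposited q and status. No test beyond the authors' was possible, and lists are given as counts and medians over tested genes. Every tested gene reached 0.246 RPKM (villus-ISC) or 0.351 RPKM (Eed-null) in its higher group. Libraries within a group are labelled biological replicates. The genes, lists, rules and alternatives were chosen with earlier results of these data known. Named were the 7 genes, up to 4 called genes per list with the largest ratios, Lgr5, Olfm4, Vil1 and Eed, and the 2 genes nearest to each gene in ratio. Ttc36, Ecel1, Eif4e2, Mcm6, Phldb1, Slc5a1, Hnf4a, Gata4, Apoa4 and Cdx2 against ISC are outside this rule and were picked with their values in view, and so were the motifs. Promoters are from RefSeq, where all 7 symbols matched.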

Additional observations from a re-analysis of the deposited data

How the results depend on the processing

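All 6 tested genes stayed called higher in wild-type villus than in ISC at q of 0.01, with Bonferroni adjustment, with 1 RPKM required in both groups and with a 2-fold minimum. In Eed-null villus the count called lower was 3 with 1 RPKM required, and 2 (Treh and Akp3) under each of the other alternatives, where Lct lost its call. The shares of all tested genes called under these alternatives are not given here. At q of 0.05 they were 30.5% higher in wild-type villus than in ISC and 3.46% lower in Eed-null villus. In either direction, 1389 tested genes had q listed as 0 against ISC and 65 in the Eed-null comparison. None of the 42 recomputed ratios of the 7 genes reversed under a pseudocount of 1 or 0.1 or after centring on the median log2 ratio. Of these ratios 4, all of Alpl, moved by over 1.5-fold. The median used for centring was -0.10 in the Eed-null comparison (10048 genes) and 0.02 in the other (9854 genes). It was taken over fewer genes than the medians of all tested genes given above, which were -0.08 and -0.10 in the same order. Of 320 list counts recomputed, 263 stayed within 1.5 times. No paired analysis was possible because the tables hold 1 value per group, and leaving out replicates could not be run for the same reason. A level cannot be set against the spread between libraries, and the 0.0357 to 0.220 RPKM of Alpl lie below the level at which the authors tested genes.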
